A study of Mus musculus with 10 samples.

Results

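Creatine genes were examined in whole kidneys of 3-month-old mice that carry 1 copy of the activating S74N allele of *Rragc* (KI/+, n = 5) and in kidneys of +/+ mice of the same age (n = 5). RagC is a GTPase that brings mTORC1, the kinase complex that senses amino acids, to the lysosome. The knock-in is a germline change made with Cas9 and a repair oligonucleotide, it is present in every cell of the animal, and the oligonucleotide also carried silent changes beside the mutated codon. No other allele, diet or agent separates the groups in the labels, and each library came from 1 mouse and 1 tissue sample. The 7 genes of the pathway, *Gatm*, *Gamt*, *Slc6a8*, *Ckb*, *Ckmt1*, *Ckmt2* and *Ckm*, were chosen by name from the results of this same comparison, in which *Ckb* was among the genes with the smallest p. Their differences between genotypes are therefore given as a description and not as a test. Of the 7 genes, 5 had a row among the 13837 genes of the deposited table and all 5 passed the filter on low values. *Ckmt2* and *Ckm*, the kinases of muscle mitochondria and of muscle cytoplasm, were not analysed here.

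Creatine stores energy as phosphocreatine and hands it back to ADP where ATP is used quickly. Its synthesis starts in the kidney, where GATM joins arginine and glycine to guanidinoacetate in the mitochondria of the proximal tubule, and is finished mainly in the liver, where GAMT adds a methyl group from S-adenosylmethionine. Cells take creatine up from blood or urine through SLC6A8, and creatine kinases move phosphate between ATP and creatine. In the kidney the cytosolic brain-type enzyme, CKB, is best known from the distal nephron, whose cells use much ATP for salt transport, and CKMT1 is the ubiquitous mitochondrial form.

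The bases before the start of 4 of these genes are shown because 3 of the genes were lower and 1 was higher in the same kidneys. They are the 250 bases upstream of the annotated start, 5′ to 3′ on the strand of the gene, from RefSeq on GRCm38.p6, which is not the build to which the reads were aligned. Capitals mark matches to 5 motifs that were searched on both strands, CACGTG (the E-box), TCACGTGA (an extended E-box, which contains the first), AAGGTCA (the half-site of oestrogen-related receptors), TATAAA (the TATA box) and CCAAT (the CCAAT box). Of the 7 genes, 6 had a sequence in the RefSeq table, in 7 windows, since *Ckmt1* has 2 starts. The first of them is shown for *Ckmt1*.
Ckb, chr12:111672339-111672588, minus strand: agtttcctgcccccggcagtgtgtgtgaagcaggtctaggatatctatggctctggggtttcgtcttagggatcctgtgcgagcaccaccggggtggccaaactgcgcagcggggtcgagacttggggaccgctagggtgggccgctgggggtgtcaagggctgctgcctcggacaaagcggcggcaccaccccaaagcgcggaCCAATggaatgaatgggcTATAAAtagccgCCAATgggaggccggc
Gatm, chr2:122611278-122611527, minus strand: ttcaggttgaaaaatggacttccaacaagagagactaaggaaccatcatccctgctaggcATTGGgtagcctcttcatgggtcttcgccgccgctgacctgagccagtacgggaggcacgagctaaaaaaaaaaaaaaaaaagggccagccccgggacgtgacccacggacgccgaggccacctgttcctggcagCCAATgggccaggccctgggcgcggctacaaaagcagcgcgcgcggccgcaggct
Ckmt1, chr2:121357526-121357775, plus strand: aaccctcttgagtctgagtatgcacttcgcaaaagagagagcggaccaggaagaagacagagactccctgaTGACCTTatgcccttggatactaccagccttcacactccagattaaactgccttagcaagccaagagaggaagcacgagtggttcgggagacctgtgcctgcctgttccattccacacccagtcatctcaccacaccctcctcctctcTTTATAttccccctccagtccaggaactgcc
Gamt, chr10:80261013-80261262, minus strand: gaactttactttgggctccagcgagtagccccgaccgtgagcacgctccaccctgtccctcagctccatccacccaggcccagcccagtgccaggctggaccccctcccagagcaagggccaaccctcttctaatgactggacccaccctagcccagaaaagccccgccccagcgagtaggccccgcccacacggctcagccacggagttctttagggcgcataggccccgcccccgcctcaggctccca

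The window of *Ckb* held a TATA box whose first base lay at -28 and CCAAT boxes at -46 and -16, counted from the start with -1 as the last base shown. The window of *Gatm* held CCAAT boxes at -190, on the opposite strand, and at -55. The first window of *Ckmt1* held the half-site at -179 and the TATA box at -31, both on the opposite strand. Its second window, 250 bases before the other start, held 1 CCAAT box. In the *Gamt* window 0 of the 5 motifs were found. Neither E-box was found in any of the 7 windows. Over 32851 windows of this length before all annotated starts, 12.37% held TATAAA, 33.85% held CCAAT, 4.08% held AAGGTCA, 6.02% held CACGTG and 0.79% held TCACGTGA. A match describes letters in these windows and not a bound site, and the absence of a match says nothing of the factor.

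Values are normalized counts, that is, reads assigned to a gene divided by the size factor of its library. The reads come from the 3′ end of each transcript, so a value does not grow with transcript length. Whether reads of different genes are captured and assigned equally well was not checked. Levels of different members are therefore compared only roughly. Recovered reads per library were 6501552 to 7856363 in +/+ and 6872310 to 7996087 in KI/+ mice, with no difference beyond the spread of the mice (p = 0.595, exact permutation of the 10 mice, two-sided). *Rragc* itself, whose 3′ reads lie outside the changed codon and cannot tell the alleles apart, had a log2 fold change of -0.40 ± 0.115 (SE, limma, adjusted p = 0.0678). The defining markers of kidney were present in every mouse, with sums over 12 proximal tubule markers between 60500 and 76960 normalized counts. All 4 Y-linked genes in the table were read in all 10 mice, with 0 called by limma, edgeR or DESeq2 and 1 at an unadjusted p under 0.05, which 15.4% of all genes tested had. KI/+ mouse 5 stood apart from the other 9 mice. It had the highest sum of smooth muscle markers (615 normalized counts, against 285 to 393 in the others), of leukocyte markers (2449 against 1064 to 1818) and of principal cell markers (3988 against 2047 to 2922), and the lowest sum of thick ascending limb markers (13770 against 20810 to 38420). Without it, the log2 fold changes were -1.44 for *Ckb*, -0.74 for *Gatm*, -0.59 for *Slc6a8*, -0.57 for *Ckmt1* and 0.42 for *Gamt*, and *Gamt* alone was no longer called. The labels number no replicates, so the mouse numbers 1 to 5 used here are names that pair no mice, and p-values measure the spread between these mice.

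Of the 5 measured members, 4 were lower in KI/+ kidneys and 1 was higher. *Ckb* was at 36.1% of its +/+ mean, *Gatm* at 61.8%, *Slc6a8* at 66.1% and *Ckmt1* at 70.1%, whereas *Gamt* was at 142.1%. All 5 were among the genes called by limma at an adjusted p under 0.05, where 3.69% of the 13197 genes tested were called in either direction, 2.02% lower and 1.67% higher. The genotypes did not overlap in *Ckb*, *Slc6a8* and *Ckmt1*, and 5.001% of all genes tested did not overlap in either direction. Since the members were chosen from this contrast, nothing is read from these counts.

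**Figure D1:**
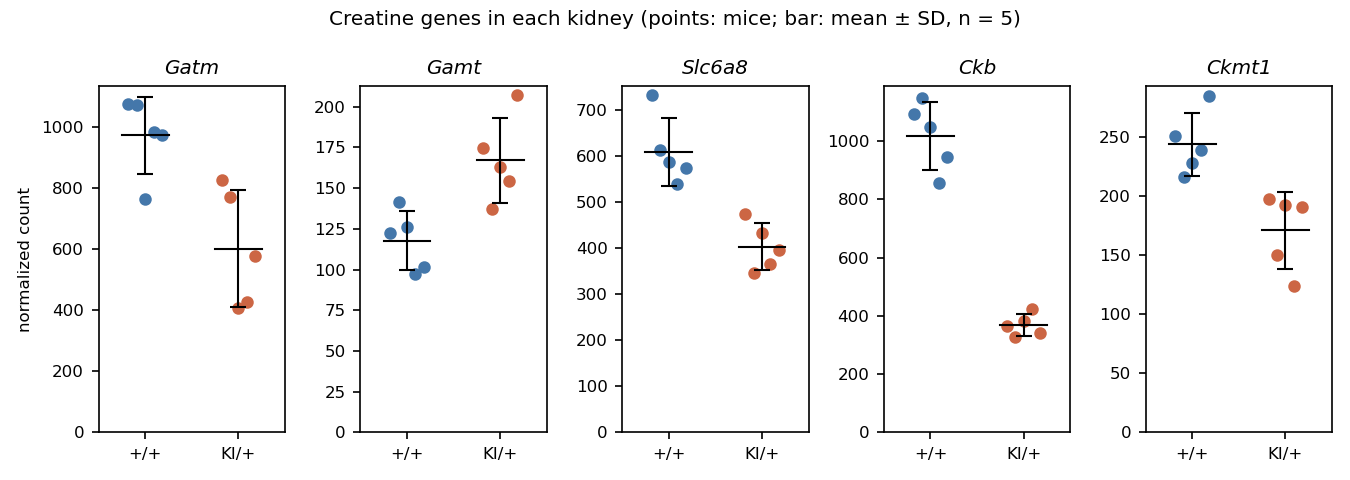
Normalized counts of the 5 measured creatine genes (vertical axis, starting at 0) in each of 5 +/+ and 5 KI/+ kidneys. Points are mice and bars are means ± SD. The genotypes do not overlap in Slc6a8, Ckb and Ckmt1, and overlap in Gatm and Gamt.

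*Gatm*, the first and rate-limiting enzyme of creatine synthesis, had 1074, 1072, 763, 984 and 974 normalized counts in the 5 +/+ mice. In the 5 KI/+ mice it had 825, 770, 409, 427 and 578. +/+ mouse 3 lay just below the higher 2 KI/+ mice, and all 5 KI/+ mice were below the +/+ mean. The means were 973 ± 127 (SD, n = 5) and 602 ± 192 (SD, n = 5), with a log2 fold change on the log2(value + 1) scale of -0.74 ± 0.169 (SE) and a 95% interval from -1.10 to -0.39. The KI/+ mice varied among themselves more in *Gatm* than in the other members, with a coefficient of variation of 31.8% against 13.0% in +/+.

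*Gamt*, the methyltransferase of the next step, moved the other way. It had 122, 141, 126, 97.5 and 101 normalized counts in +/+ and 175, 138, 163, 154 and 207 in KI/+ mice. Of the 5 KI/+ mice, 4 were above the highest +/+ mouse, and KI/+ mouse 2 fell inside the +/+ range. The means were 118 ± 18.2 and 167 ± 26.1 (SD, n = 5 each), with a log2 fold change of 0.50 ± 0.135 (SE) and a 95% interval from 0.22 to 0.79. It is the member with the fewest reads, and the lowest library of this gene held 91.

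The transcripts of the 2 enzymes of synthesis therefore stood in another proportion to each other. The ratio of *Gatm* to *Gamt* normalized counts within a mouse was 8.42 ± 1.63 in +/+ (SD, n = 5, range 6.06 to 10.1) and 3.68 ± 1.40 in KI/+ kidneys (SD, n = 5, range 2.51 to 5.60). The ranges did not overlap, although those of either gene alone did. Both genes were chosen from this contrast and changed in opposite directions. A wider gap in their ratio follows from that, so the ratio is a description only.

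*Slc6a8*, the sodium- and chloride-coupled creatine transporter, had 732, 613, 587, 538 and 574 normalized counts in +/+ and 473, 347, 433, 366 and 395 in KI/+ mice. Every KI/+ mouse was below every +/+ mouse. The means were 609 ± 73.9 and 403 ± 51.2 (SD, n = 5 each), and the log2 fold change was -0.60 ± 0.105 (SE, 95% interval -0.82 to -0.38).

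*Ckb*, the cytosolic brain-type creatine kinase, differed most. Its normalized counts were 1092, 1148, 1050, 856 and 945 in +/+ mice, and 366, 326, 381, 423 and 341 in KI/+ mice. The highest KI/+ mouse stayed far below the lowest +/+ mouse. The means were 1018 ± 117 and 368 ± 37.8 (SD, n = 5 each), with a log2 fold change of -1.47 ± 0.099 (SE) and a 95% interval from -1.67 to -1.26. The interval lay below those of the other 4 members, and mice of 1 genotype differed little, with coefficients of variation of 11.5% in +/+ and 10.3% in KI/+.

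*Ckmt1*, the mitochondrial creatine kinase, had 251, 216, 228, 239 and 285 normalized counts in +/+ and 197, 151, 192, 124 and 191 in KI/+ mice. The groups were separate, but the highest KI/+ and the lowest +/+ mouse were close. The means were 244 ± 26.4 and 171 ± 32.4 (SD, n = 5 each), and the log2 fold change was -0.53 ± 0.133 (SE, 95% interval -0.81 to -0.25). Annotated loci overlap those of *Ckmt1* (*Strc* and Gm33947) and *Slc6a8* (Gm32261), and reads were counted by strand, which separates only genes on opposite strands.

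The creatine kinase transcripts measured were thus fewer and made up differently. The sum of *Ckb* and *Ckmt1* was 1262 ± 107 normalized counts in +/+ and 538 ± 38.1 in KI/+ mice (SD, n = 5 each), with no overlap. *Ckb* made up 76.8% to 84.2% of that sum in +/+ mice (mean 80.5% ± 2.99, SD). In KI/+ mice it made up 65.0%, 68.4%, 66.5%, 77.4% and 64.1% (mean 68.3% ± 5.35, SD). KI/+ mouse 4, whose 95% Wilson interval ran from 73.7% to 80.7%, fell inside the +/+ range, while the other 4 KI/+ mice were below all +/+ mice. These intervals cover counting error only. That mouse had the highest *Ckb* and the lowest *Ckmt1* of its group. The ratio of *Ckb* to *Slc6a8*, the kinase against the transporter, was 1.68 ± 0.153 in +/+ and 0.923 ± 0.144 in KI/+ mice, without overlap. Both genes were chosen from this contrast, so this ratio too is a description only.

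**Figure D2:**
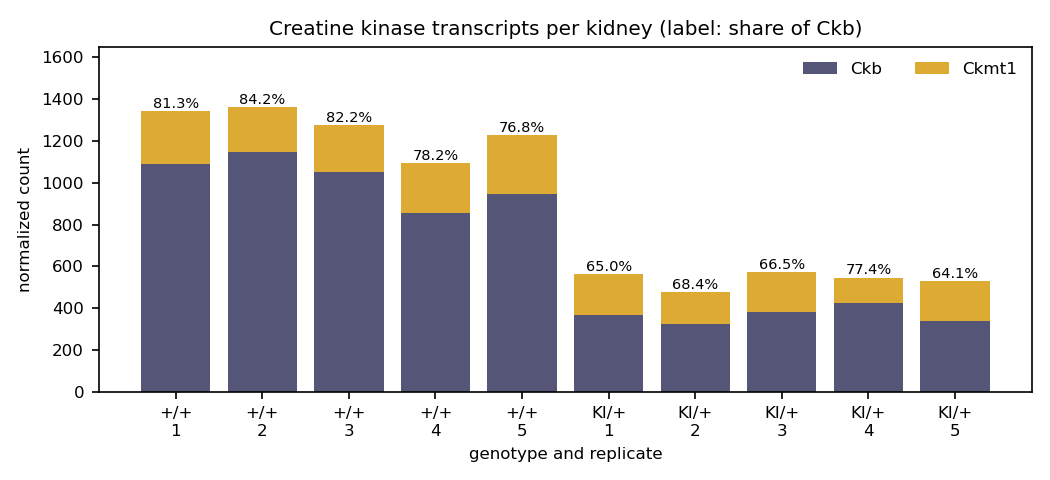
Normalized counts of Ckb and Ckmt1 stacked for each of the 10 kidneys (vertical axis, starting at 0), with the share of Ckb in percent above each bar. The summed height is 1262 on average in +/+ and 538 in KI/+ mice, and KI/+ mouse 4 alone among KI/+ mice has a Ckb share within the +/+ range.

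The order of the members changed with this. In +/+ kidneys *Ckb* (mean 1018) and *Gatm* (973) were highest and their ranges overlapped, followed by *Slc6a8* (609), *Ckmt1* (244) and *Gamt* (118), each below the whole range of the gene before it. In KI/+ kidneys *Gatm* (602) came first, then *Slc6a8* (403) and *Ckb* (368), and neighbours among these 3 overlapped. *Ckmt1* (171) and *Gamt* (167) were lowest and overlapped each other.

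The codes of the libraries form 2 runs. The first holds 2 +/+ and 1 KI/+ mice, and the second 3 +/+ and 4 KI/+ mice. KI/+ mouse 5, with code ending 66, was counted in the second run, whose other endings ran from 53 to 58. The labels do not say what the runs stand for. Each member had the same direction within both runs. In the second run, the log2 fold changes were -1.37 for *Ckb*, -0.77 for *Gatm*, -0.56 for *Slc6a8*, -0.62 for *Ckmt1* and 0.60 for *Gamt*. In the first, with a single KI/+ mouse and no test, they were -1.61, -0.38, -0.50, -0.24 and 0.41 in the same order. The calls of *Ckb* and *Slc6a8* held in all 12 other settings and in all 10 fits without 1 mouse. *Gatm* lost its call in 2 settings and without KI/+ mouse 4 (log2 fold change -0.63), whereas *Gamt* was still called in 2 and *Ckmt1* in 5 of the 10 fits without 1 mouse, all in the same direction.

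**Figure D3:**
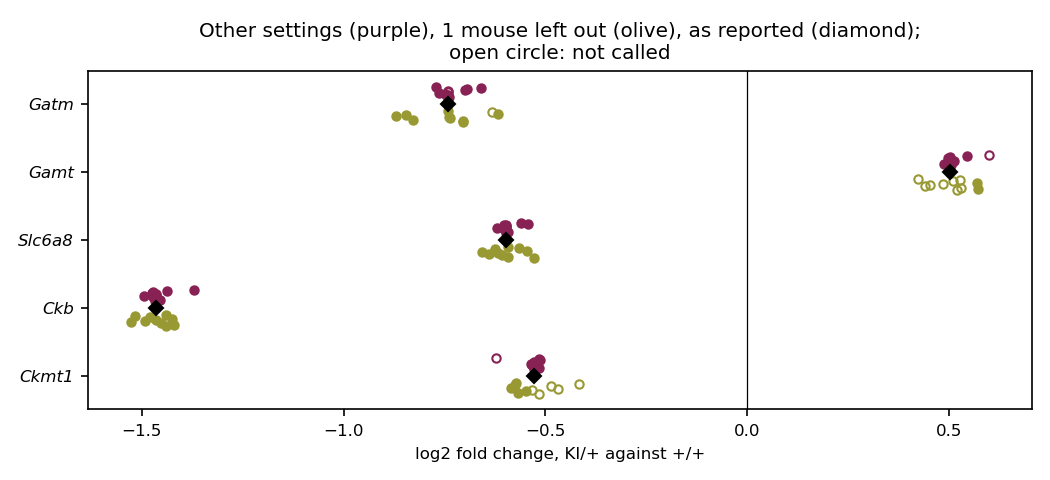
Log2 fold change of each measured creatine gene (horizontal axis, KI/+ against +/+) as reported (diamond), under 12 other settings (purple) and with 1 mouse left out (olive). Open circles mark fits in which the gene was not called, and no value of any gene crosses 0.

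Within a genotype the members did not vary as a block. Across the 10 mice, with each value taken as its deviation from the mean of its genotype on the log2(value + 1) scale, Pearson's r between pairs of members ran from -0.41 (*Ckb* with *Ckmt1*) to 0.51 (*Slc6a8* with *Ckmt1*). The genes most like each member were sought among 9136 genes whose mean reached 50 normalized counts. For *Gatm* they were *Cryl1* (r = 0.958), *Aldh3a2* (r = 0.953) and *Acadl* (r = 0.946). For *Ckb* they were *Tardbp* (r = 0.934), Zeb2os (r = 0.925) and *Stx8* (r = 0.925), and for *Slc6a8* they were *Pcolce* (r = 0.965), *Aatf* (r = 0.965) and *Cpsf1* (r = 0.959). *Gamt* was nearest to *Csk* (r = 0.943), 9030619P08Rik (r = 0.939) and *Arl15* (r = 0.939), and *Ckmt1* to *Fbh1* (r = 0.911), *Agbl5* (r = 0.894) and *Trim25* (r = 0.893). These are descriptions over 10 mice that share their libraries and depth, and each is the highest of many.

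Substrates and users of creatine were followed in 9 lists of linked genes, which held 116 genes, of which 103 were tested. Of these, 20 were called, 8 higher and 12 lower, or 19.4%, beside 3.69% of all genes tested. The median log2 fold change was 0.03 over the 103 genes and 0.0005 over all genes. The lists were put together with earlier results of these data known.

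**Figure D4:**
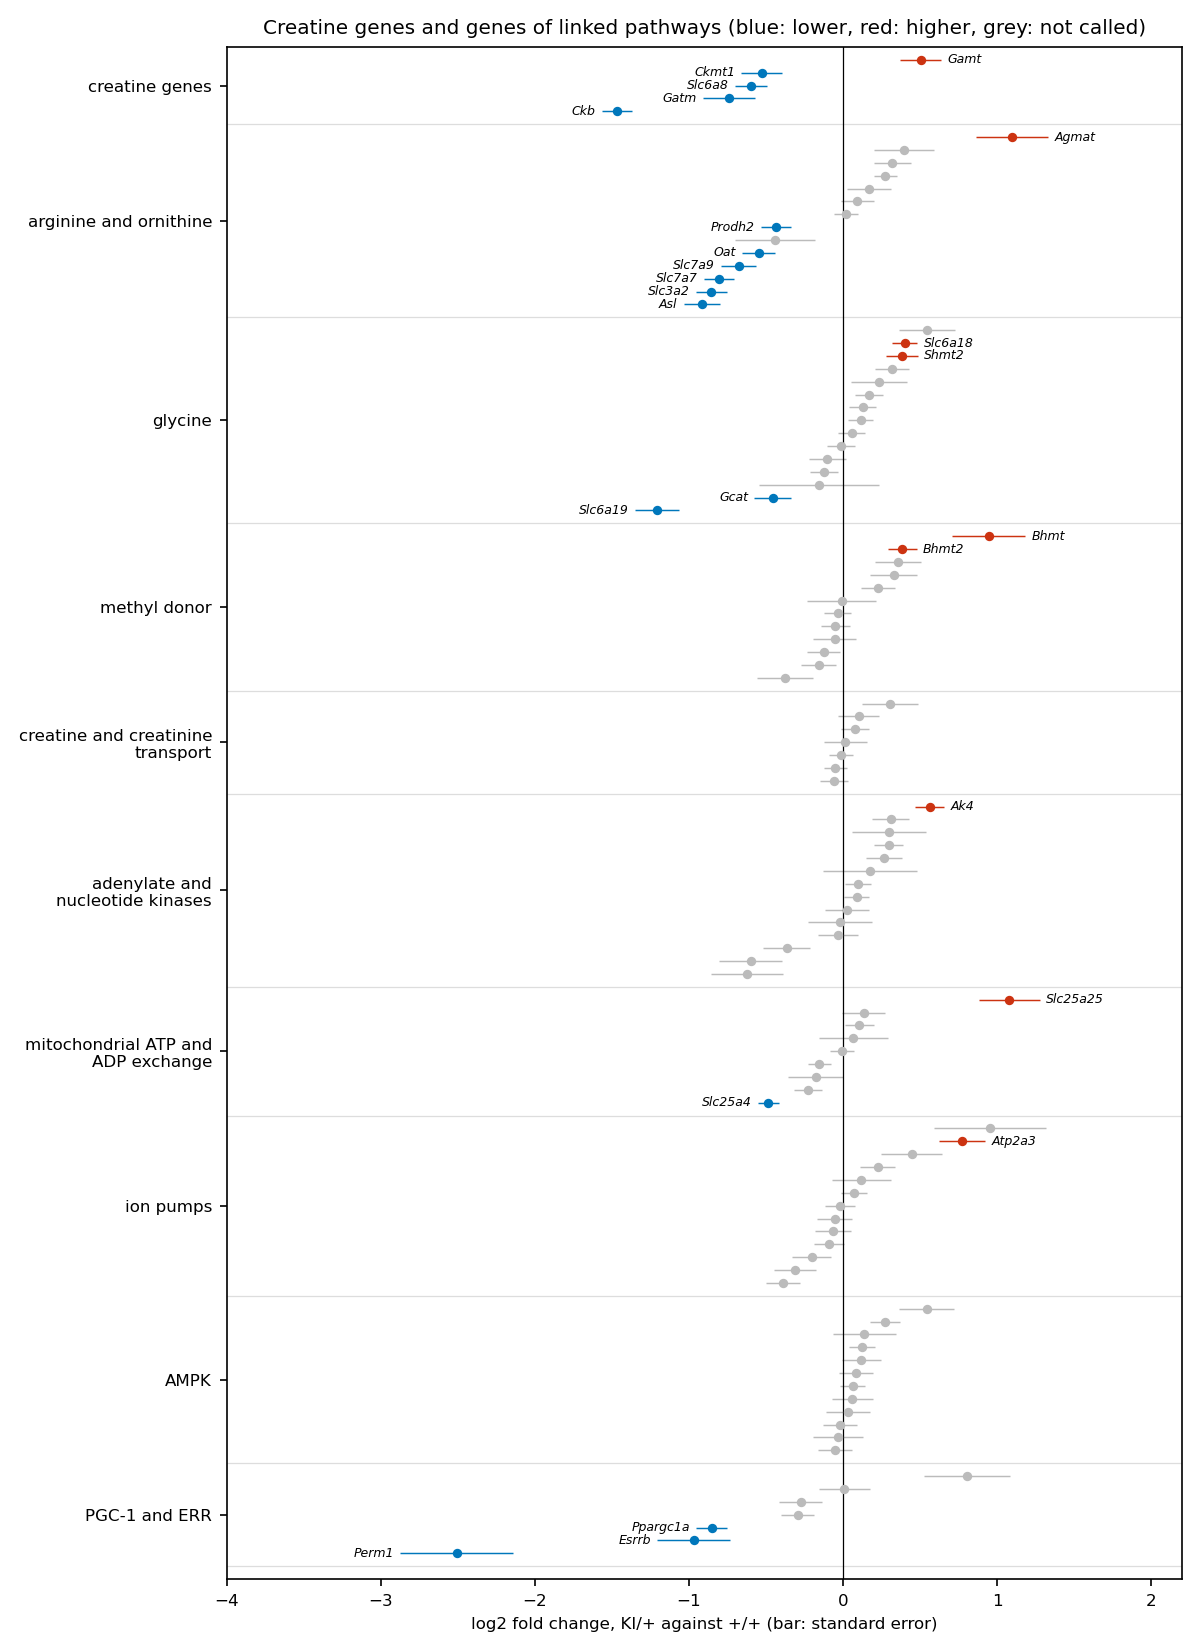
Log2 fold change of the measured creatine genes and of each tested gene of 9 linked lists (horizontal axis, KI/+ against +/+, bars are standard errors), 1 gene per row. Blue genes are called lower, red genes higher and grey genes are not called, and the arginine and ornithine list holds 7 of the 20 calls outside the creatine genes.

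Arginine is one of the 2 amino acids used by GATM. Of 14 tested genes for arginine and ornithine, 6 fell and 1 rose, with a list median of -0.21. Of all genes tested, 2.02% were called lower and 1.67% higher. *Asl*, which releases arginine from argininosuccinate, had 249, 256, 318, 282 and 296 normalized counts in +/+ and 144, 174, 159, 148 and 118 in KI/+ mice, with no overlap (log2 fold change -0.92 ± 0.116, SE, limma, adjusted p = 8.42e-05). *Slc7a7*, which exports arginine across the basolateral membrane, went from 734 ± 72.1 to 420 ± 46.9 (SD, n = 5 each, log2 fold change -0.81, limma, adjusted p = 5.15e-05). *Slc3a2*, the heavy chain with which it pairs, went from 810 ± 104 to 447 ± 46.3 (log2 fold change -0.85, limma, adjusted p = 4.72e-05). Both chains of this exporter were lower in every KI/+ mouse than in any +/+ mouse. *Agmat*, annotated as the enzyme that splits agmatine, rose from 26.2 ± 8.64 to 54.8 ± 9.12 (log2 fold change 1.10, limma, adjusted p = 0.0114), again without overlap.

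Glycine is the other amino acid, and of its 15 tested genes 2 rose and 2 fell, with a list median of 0.11. The shares over all genes tested were 1.67% higher and 2.02% lower. Without KI/+ mouse 5, 3 genes of this list were called higher and 1 lower. *Slc6a19*, the apical carrier of neutral amino acids, had 500, 429, 604, 725 and 751 normalized counts in +/+ and 235, 308, 281, 221 and 235 in KI/+ mice (log2 fold change -1.21 ± 0.143, SE, limma, adjusted p = 4.48e-05). No KI/+ mouse reached the lowest +/+ mouse. *Slc6a18*, a related apical carrier for glycine and other neutral amino acids, rose from 1867 ± 149 to 2468 ± 194 (log2 fold change 0.40, limma, adjusted p = 0.00704). The mitochondrial enzyme *Shmt2*, which makes glycine from serine, rose by 0.38 on the log2 scale (limma, adjusted p = 0.0422), and *Gcat*, which works in threonine breakdown to glycine, fell by 0.46 (limma, adjusted p = 0.0418). Each of the last 2 was called in only 2 of the 10 fits without 1 mouse.

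The methyl group that GAMT uses comes from the methionine cycle. Of its 12 tested genes 2 rose and 0 fell, beside 1.67% and 2.02% of all genes tested, with a list median of -0.02. Without KI/+ mouse 5, 1 gene of this list was called higher and 0 lower. Both genes called with all 10 mice remethylate homocysteine to methionine. *Bhmt2* went from 452 ± 39.5 to 592 ± 58.5 normalized counts (log2 fold change 0.39, limma, adjusted p = 0.0271), and *Bhmt*, near the low end of the table, from 15.9 ± 3.11 to 32.0 ± 7.80 (log2 fold change 0.95, limma, adjusted p = 0.0325). They were called in 4 and 2 of the 10 fits without 1 mouse.

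Of 7 tested carriers of creatine, guanidinoacetate and creatinine other than *Slc6a8*, 0 were called by limma, edgeR or DESeq2, and 0 had an unadjusted p under 0.05, beside 15.4% of all genes tested. The 2 with the highest levels were *Slc22a2*, the organic cation carrier that takes up creatinine, at 4372 ± 1318 and 5369 ± 1356 normalized counts (log2 fold change 0.31, limma, adjusted p = 0.477), and *Slc47a1*, which secretes it, at 4294 ± 182 and 4268 ± 360 (log2 fold change -0.01, limma, adjusted p = 0.965). *Slc16a12*, a carrier that lets creatine leave cells and was picked here for that role after its values were seen, had 246 ± 14.4 and 236 ± 11.4 (log2 fold change -0.06, limma, adjusted p = 0.825).

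Among 14 adenylate and nucleotide kinases, which also move high-energy phosphate, 1 rose and 0 fell, or 7.1% beside 3.69% of all genes tested. At an unadjusted p under 0.05 there were 7, beside 15.4% of all genes tested, and the list median was 0.09. The called gene was *Ak4*, a kinase of the mitochondrial matrix, with 1034, 1132, 866, 927 and 1103 normalized counts in +/+ and 1777, 1449, 1420, 1378 and 1452 in KI/+ mice (log2 fold change 0.56 ± 0.094, SE, limma, adjusted p = 0.00148). All KI/+ mice were above all +/+ mice. Of 9 tested genes listed for mitochondrial ATP and ADP exchange, 1 rose and 1 fell, or 22.2% beside 3.69% of all genes tested. The list median was -0.008. *Slc25a4*, an ADP/ATP exchanger of the inner membrane, fell from 2001 ± 60.4 to 1431 ± 66.4 (log2 fold change -0.48, limma, adjusted p = 0.000389) with no overlap. *Slc25a25*, a calcium-regulated carrier of ATP-magnesium, rose from 197 ± 54.5 to 422 ± 126 (log2 fold change 1.08, limma, adjusted p = 0.00332), and its groups overlapped.

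Among the ATP-driven ion pumps, the consumers that creatine kinase can supply, 1 of 13 tested genes was called, beside 3.69% of all genes tested. This was *Atp2a3*, a calcium pump of the endoplasmic reticulum, at 72.2 ± 11.3 and 125 ± 23.9 normalized counts (log2 fold change 0.78, limma, adjusted p = 0.00477). The list median was -0.02. Of 12 genes for the energy sensor AMPK and its activating kinase, 0 were called by limma, edgeR or DESeq2, and 2 had an unadjusted p under 0.05, beside 15.4% of all genes tested. *Stk11*, the activating kinase, had 758 ± 52.8 and 792 ± 59.4 (log2 fold change 0.06, limma, adjusted p = 0.792), and *Prkag1*, a regulatory subunit, 726 ± 58.4 and 791 ± 66.3 (log2 fold change 0.12, limma, adjusted p = 0.56).

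The PGC-1 and ERR group holds coactivators and nuclear receptors of mitochondrial genes. Of its 7 genes 3 fell and 0 rose, beside 2.02% and 1.67% of all genes tested, with a list median of -0.29. The coactivator *Ppargc1a* had 506, 599, 753, 623 and 665 normalized counts in +/+ and 327, 342, 350, 380 and 331 in KI/+ mice (log2 fold change -0.85 ± 0.101, SE, limma, adjusted p = 4.64e-05). *Perm1*, a muscle-known regulator induced by these factors, had 53.9, 55.1, 65.8, 47.2 and 38.4 in +/+ and 13.3, 15.8, 9.46, 7.91 and 1.95 in KI/+ mice (log2 fold change -2.51 ± 0.366, SE, limma, adjusted p = 0.000411), so that the KI/+ values rest on few reads. Neither gene overlapped between genotypes. The receptor *Esrrb* went from 102 ± 10.6 to 54.9 ± 19.7 (log2 fold change -0.97, limma, adjusted p = 0.029), and was called in 7 of the 10 fits without 1 mouse.

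Markers of nephron segments moved in the same kidneys. Their counts stand beside 2.02% of all genes tested called lower and 1.67% called higher, and a median of 0.0005. Of 8 markers of the distal convoluted tubule, 5 fell and 0 rose, with a median of -0.73. *Slc12a3*, the thiazide-sensitive salt carrier that defines this segment, had 2920, 2559, 2973, 2593 and 2445 normalized counts in +/+ and 1247, 1283, 1160, 1261 and 942 in KI/+ mice (log2 fold change -1.20 ± 0.094, SE, limma, adjusted p = 2.61e-07). The calcium-binding *Pvalb*, of its early part, went from 134 ± 18.4 to 15.2 ± 2.46 (log2 fold change -3.06, limma, adjusted p = 5.08e-09), while *Calb1*, of its late part, had 1601 ± 250 and 1544 ± 484 (log2 fold change -0.09, limma, adjusted p = 0.852). The summed markers ranged from 5874 to 6633 in +/+ and from 3620 to 4934 in KI/+ mice, with none at 0.

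**Figure D5:**
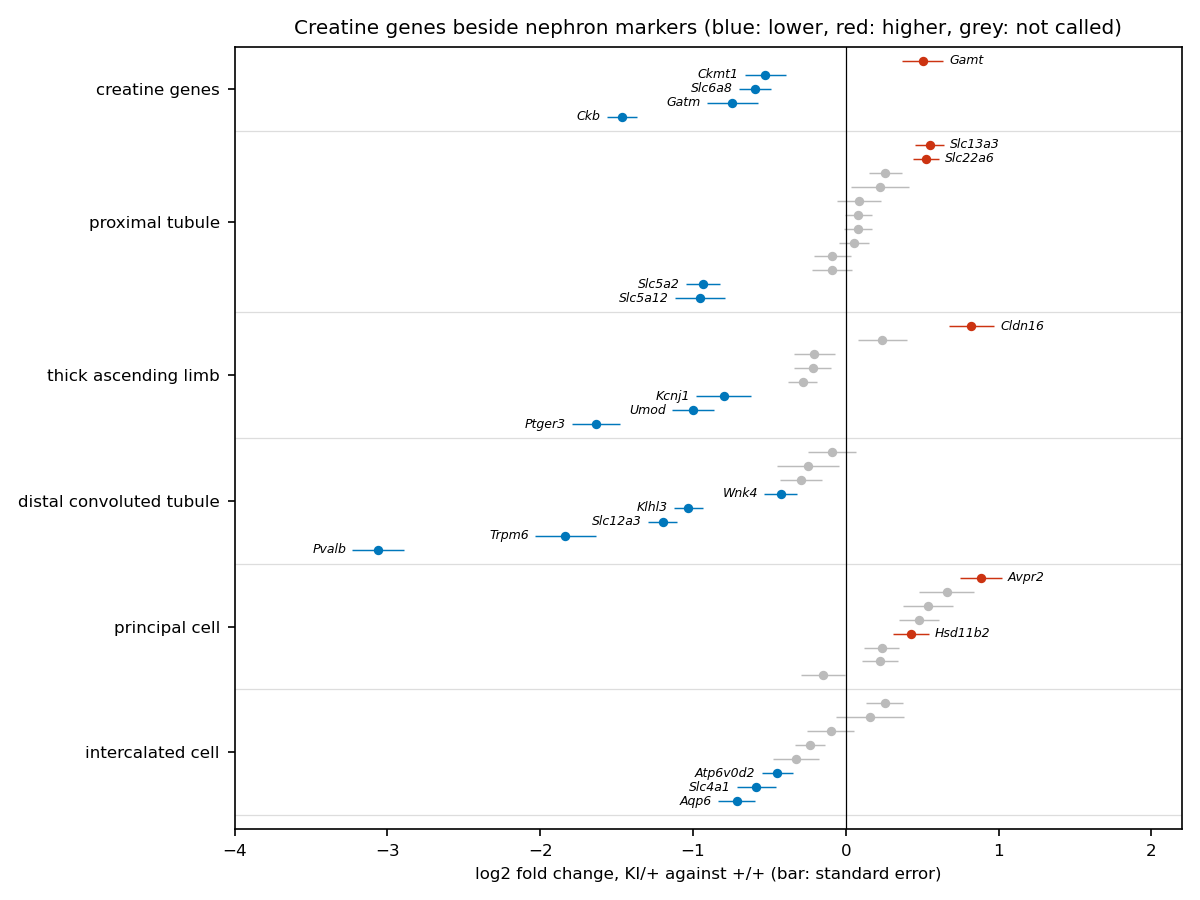
Log2 fold change of the measured creatine genes and of each marker of 5 nephron cell types (horizontal axis, KI/+ against +/+, bars are standard errors), 1 gene per row. Blue genes are called lower, red genes higher and grey genes are not called. In the distal convoluted tubule 5 of 8 markers are lower and in the proximal tubule 2 are lower and 2 higher.

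In the thick ascending limb, 3 of 8 markers fell and 1 rose, beside 3.69% of all genes tested called either way. The marker that rose was *Cldn16*, from a mean of 125.3 to 219.5 normalized counts (log2 fold change 0.82, limma, adjusted p = 0.0028). The sums over this segment were 29390 to 38420 in +/+ and 13770 to 22570 in KI/+ mice, and *Umod* made up most of them. *Umod*, its most abundant transcript, went from 22920 ± 3438 to 11570 ± 2214 normalized counts (log2 fold change -0.999, limma, adjusted p = 0.000198), with KI/+ mouse 5 lowest at 7760 and a log2 fold change of -0.86 without it, whereas the salt carrier *Slc12a1* of the same cells had 6354 ± 629 and 5540 ± 1049 (log2 fold change -0.22, limma, adjusted p = 0.438). The ratio of *Ckb* to a marker within each mouse depended on the marker. Of the 8 markers of the distal convoluted tubule, it was lower without overlap in KI/+ mice for 4, higher without overlap for 1 (*Pvalb*) and overlapped for 3. Against *Slc12a3* it was 0.379 ± 0.0447 in +/+ and 0.315 ± 0.0416 in KI/+ (SD, n = 5 each), with overlap, and against *Calb1* 0.642 ± 0.0775 and 0.258 ± 0.0878, without. Of the 8 markers of the thick ascending limb, it was lower without overlap for 5 and overlapped for 3, *Umod* among the latter. *Ckb* was chosen from this same contrast and fell more than most of these markers. Its ratio to a marker that fell less is lower by that choice, so nothing is read from these counts. In whole tissue, fewer cells of a type and less RNA per cell cannot be told apart. The part of these segments in the lower *Ckb* was not tested.

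In the proximal tubule, where *Gatm* is expressed, 2 of 12 markers fell and 2 rose, again beside 3.69%, with a median of 0.08, and the sums were 60500 to 66010 in +/+ and 67370 to 76960 in KI/+ mice. The glucose carrier *Slc5a2* of the first segment fell from 1380 ± 83.3 to 731 ± 127 (log2 fold change -0.93, limma, adjusted p = 4.64e-05) and the lactate carrier *Slc5a12* from 438 ± 144 to 219 ± 30.1 (log2 fold change -0.95, limma, adjusted p = 0.00177). The anion carriers *Slc22a6* (log2 fold change 0.52, limma, adjusted p = 0.00105) and *Slc13a3* (log2 fold change 0.55, limma, adjusted p = 0.0017) rose, and *Slc34a1*, *Lrp2*, *Cubn* and *Hnf4a* were not called. Of 8 markers each, 2 rose in principal cells (sums 2047 to 2404 in +/+ and 2554 to 3988 in KI/+) and 3 fell in intercalated cells (1759 to 1851 and 1351 to 1550), beside 1.67% and 2.02% of all genes tested. Of the principal cell markers, edgeR called 1 and DESeq2 5, and limma called 1 without KI/+ mouse 5. The part of any of these in the creatine genes was not tested.

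Tissues that border a dissected kidney could bring creatine kinase transcripts. Of 12 skeletal muscle markers, 1 (*Eno3*) was in the table, at 18.1 to 35.6 normalized counts in +/+ and 12.1 to 27.7 in KI/+ mice, and it was not called. Of the smooth muscle list 4 of 7 were in the table, and 0 were called by limma, edgeR or DESeq2 (2 at an unadjusted p under 0.05). Of the leukocyte list 5 of 8 were in the table, with 0 called by the same tools (2 at an unadjusted p under 0.05). Over all genes tested, 15.4% had such a p. KI/+ mouse 5 was highest of all 10 mice in 3 of these 4 smooth muscle and 4 of these 5 leukocyte genes, among them *Acta2* (316 normalized counts, against at most 195) and *Lyz2* (507 against at most 254). Of 8 adipocyte genes 2 were in the table. *Pck1*, which the proximal tubule also expresses, rose by 1.30 on the log2 scale (limma, adjusted p = 0.00412). *Fabp4* had 179 to 217 normalized counts in +/+ mice and 604, 196, 94.6, 147 and 871 in KI/+ mice (log2 fold change 0.45, limma, adjusted p = 0.689), so that KI/+ mice 1 and 5 were above all others. The part of these cell types in the creatine genes was not tested. Of 5 erythrocyte genes, *Hba-a1* fell by 0.60 (limma, adjusted p = 0.0477) and the other 4 were not called. DESeq2 called 1 of the 5 and edgeR 0, and limma called 0 without KI/+ mouse 5.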

How the data were processed

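QuantSeq 3′ libraries, 1 per mouse, were sequenced by the authors from kidneys of 5 +/+ and 5 KI/+ mice. Reads were checked with FastQC 0.11.7, aligned to GRCm39 with TopHat2 2.0.10, Bowtie 1.0.0 and SAMtools 0.1.19, allowing multiple hits, and counted by strand with HTSeq 0.6.1 on GENCODE, as the study's methods and the submitters' processing notes give it. The signal deposited by the authors for 13837 genes is the reads of a gene over the size factor of the library (0.8818 to 1.124). Each of the 10 columns carries the title of 1 mouse. Multiplied by the size factor, 100% of values were whole reads within 0.01 reads, so each value's depth is known. The lowest mean of a gene was 5.64, so genes of lower level were not analysed here.

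Values were tested with limma 3.58.1 in R 4.3.3 (lmFit, eBayes with trend, no covariate) on log2(value + 1), two-sided, over the 13197 genes that reached 10 normalized counts in 5 or more mice. Genes were called at a p under 0.05 after Benjamini-Hochberg adjustment over all of them. The test was tried on simulated data first. Alternatives were pseudocounts of 0.5 and 5, TMM rescaling, no filter, quantile normalization, a filter on means under 50, limma with robust variances or without trend, edgeR 4.0.16 and DESeq2 1.42.0 on the recovered reads, the run of codes as a covariate, the second run alone, and leaving out each mouse. The creatine genes, the linked lists, the markers and their rule were chosen with earlier results of these data known. In each linked list the called genes were named, or the 4 with the largest change where more were called, or the 2 with the highest mean where none was. Marker genes were named freely after their values were seen. Numbers and figures were made with matplotlib 3.10.9, pandas 2.3.3, scipy 1.17.1 and numpy 2.4.6 in python 3.11.15.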

Additional observations from a re-analysis of the deposited data

Results flagged for a closer look

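Values of the named and marker genes and of the ratios were searched for a mouse that stands apart from the other 4 of its genotype, by the gap to its nearest neighbour as a share of the range (Dixon's test, critical value 0.71). Chance flags about 1 in 20 groups, and 15 of 192 groups were flagged. One is a creatine ratio. The ratio of *Ckb* to *Ckmt1* was 3.424 in KI/+ mouse 4, with the next KI/+ mouse at 2.167. The other values are normalized counts.

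In KI/+ mouse 5, 6 genes were flagged. *Umod* was lowest at 7760 (next 11870), *Slc7a13* lowest at 5404 (next 9060) and *Gcat* lowest at 142.1 (next 168.2). *Acta2* was highest at 316.2 (next 195.4), *Lyz2* highest at 507 (next 250.4) and *Slc8a1* highest at 1146 (next 768.3).

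Of the other KI/+ mice, mouse 1 was highest in *Ak4* at 1777 (next 1452) and in *Wnk4* at 314 (next 240.6). Mouse 3 was highest in *Stk11* at 896.4 (next 780.6), and mouse 2 was lowest in *Eno3* at 12.08 (next 24.17). Among +/+ mice, mouse 3 was highest in *Slc4a4* at 6845 (next 5494). +/+ mouse 1 was highest in *Foxi1* at 63.9 (next 51.25) and in *Eno3* at 35.6 (next 22.51), and +/+ mouse 4 was lowest in *Aqp6* at 244.4 (next 313.9).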

How the results depend on the processing

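No paired analysis was possible because the labels give no replicate numbers, and the numbers 1 to 5 used here only name the mice of a genotype. Of the 5 measured creatine genes, all called, 2 were called by limma without trend, 3 in the second run of library codes alone, and 2 to 5 with 1 mouse left out. All kept their direction in every setting. Without trend, *Gatm* (-0.742), *Gamt* (0.503) and *Ckmt1* (-0.527) were not called. With robust variances *Gatm* (-0.742) was not. In the second run alone *Gamt* (0.6) and *Ckmt1* (-0.623) were not. With 1 mouse left out, the log2 fold change of *Gatm* ran from -0.871 to -0.618 and its call was lost without KI/+ mouse 4. That of *Gamt* ran from 0.423 to 0.573, with the call lost without any mouse but +/+ 2 and KI/+ 2. That of *Ckmt1* ran from -0.584 to -0.416, with the call lost without +/+ 1, 4 or 5 and without KI/+ 2 or 4. *Ckb* (-1.526 to -1.421) and *Slc6a8* (-0.657 to -0.528) stayed called. The cause of the lost calls was not tested. Leaving out a mouse also lowered the count over all genes, from 487 to 295 to 466.

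Among the linked lists, 14 to 25 genes were called in the other settings and 15 to 20 without 1 mouse, against 20. *Slc6a18* was called in all 10 fits without 1 mouse, but not by limma without trend (log2 fold change 0.402, adjusted p = 0.0542). With 1 mouse left out, *Shmt2* stayed called only without +/+ 1 or KI/+ 5, *Gcat* only without +/+ 2 or KI/+ 3, *Bhmt* only without +/+ 1 or KI/+ 3, and *Bhmt2* only without +/+ 1, +/+ 4, KI/+ 3 or KI/+ 5, while *Esrrb* lost its call without +/+ 1, 3 or 4. *Slc47a1*, never called, changed sign without +/+ 4 (0.007) and KI/+ 5 (0.035), within a range of -0.045 to 0.035 with 1 mouse left out. Over all genes, limma called 487, but 291 without trend and 832 with the covariate for the run. The difference in the share of *Ckb* stayed between -14.53 and -11.21 percentage points. Counts below about 20, as in *Perm1* and *Bhmt*, limit the precision of their fold changes.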
